A study of Mus musculus with 18 samples.

Results

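The genes described here belong to the families of transforming growth factor beta (TGF-beta) and bone morphogenetic protein (BMP) signals, and they were followed through the reprogramming of mouse cardiac fibroblasts towards cardiomyocytes. A gene was a member when its symbol began with Bmp, Gdf, Tgfb or Smad and a digit, with Bmpr or Tgfbr, or with Inhb or Acvr, and when a probe set of the array named it alone. The pattern gave 48 genes of 19912 tested, each with 1 probe set. They hold 3 TGF-beta ligands, 16 BMP and GDF ligands, 5 activin subunits or related ligands, 7 type I receptors, 5 type II receptors and co-receptors, 8 SMADs, and 4 genes named after the families that are no ligand, receptor or SMAD.

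All cells came from CD1 mice. Induced cardiomyocyte-like cells (iCMs) were profiled at 4 weeks and at 2 weeks, beside GFP- cells of the same weeks, which the labels call failed in reprogramming. Neonatal cardiomyocytes and neonatal cardiac fibroblasts gave the end points. Each of the 6 groups had 3 Affymetrix mouse Gene 1.0 ST arrays, and neither the factors introduced nor the promoter behind GFP is given in the sources used here.

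Ligands of the TGF-beta superfamily are secreted dimers that bring type I and type II receptor kinases together. TGF-beta and activin receptors then phosphorylate Smad2 and Smad3, while BMP receptors phosphorylate Smad1, Smad5 and Smad9, and either set enters the nucleus with Smad4. Smad6 and Smad7 inhibit the cascade, and secreted traps such as follistatin or gremlin hold ligands back. In the heart TGF-beta signals are known for driving fibroblasts towards matrix production, and BMP signals for the induction of cardiac mesoderm.

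Levels are log2 intensities made with RMA, so that 1 unit is a 2-fold difference. A member is said to be called, or to have risen or fallen, when its adjusted p was under 0.05 in limma over all 19912 genes. Differences carry the standard error (SE), and the first group named is the one the second is subtracted from. Background was set at 6.38 log2, which is the smallest value that the 25th percentile took on an array, and a group mean below it counts as under background. Of the 48 members, 44 passed that level in at least 1 group. Acvr1c, Bmpr1b, Bmp15 and Inhbe did not, and no fold is given for them. Each gene is compared only with itself between groups, since levels of different probe sets cannot be set against each other. In such bulk RNA, fewer cells of a type and less RNA per cell cannot be told apart. Whether arrays of a group stand for separate cultures is not stated, and p-values therefore cover only the spread among arrays, which may be technical. Comparisons with fibroblasts share the same 3 fibroblast arrays, and those with cardiomyocytes the same 3 cardiomyocyte arrays.

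Markers were read before the members. The mean over 12 cardiomyocyte markers ran, from the lowest to the highest array, from 11.86 to 11.95 log2 in 4-week iCMs, 11.21 to 11.57 in 2-week iCMs, 8.24 to 8.40 in 4-week GFP- cells, 8.27 to 8.60 in 2-week GFP- cells, 12.91 to 12.95 in cardiomyocytes and 7.40 to 7.55 in fibroblasts. For 12 macrophage markers the range was 8.93 to 9.15 log2 in 4-week iCMs, 9.46 to 9.77 in 2-week iCMs, 11.77 to 11.92 in 4-week GFP- cells, 11.96 to 11.98 in 2-week GFP- cells, 6.56 to 6.66 in cardiomyocytes and 11.62 to 11.88 in fibroblasts. The cells labelled fibroblasts thus carried macrophage markers near the level of GFP- cells. For 12 fibroblast markers, among which Lum was under background in 2-week iCMs, the range was 8.62 to 8.66 log2 in 4-week iCMs, 9.11 to 9.34 in 2-week iCMs, 9.06 to 9.34 in 4-week GFP- cells, 8.78 to 9.22 in 2-week GFP- cells, 9.48 to 9.79 in cardiomyocytes and 10.46 to 10.86 in fibroblasts. Smooth muscle and pericyte markers, 8 in number, gave 8.52 to 8.62 log2 in 4-week iCMs, 8.58 to 8.71 in 2-week iCMs, 7.84 to 7.96 in 4-week GFP- cells, 7.62 to 8.05 in 2-week GFP- cells, 9.09 to 9.35 in cardiomyocytes and 8.29 to 8.52 in fibroblasts, with Rgs5 under background in every group but the 2-week iCMs and cardiomyocytes. For 8 endothelial markers the range was 7.13 to 7.19 log2 in 4-week iCMs, 6.84 to 6.96 in 2-week iCMs, 8.35 to 8.73 in 4-week GFP- cells, 7.72 to 7.87 in 2-week GFP- cells, 8.65 to 8.84 in cardiomyocytes and 6.66 to 6.80 in fibroblasts, and for 8 mesothelial and epicardial markers it was 8.99 to 9.20 log2 in 4-week iCMs, 9.33 to 9.58 in 2-week iCMs, 7.87 to 8.12 in 4-week GFP- cells, 8.20 to 8.61 in 2-week GFP- cells, 7.41 to 7.48 in cardiomyocytes and 7.96 to 8.31 in fibroblasts. Of these, Emcn was under background in fibroblasts, and Krt19 in every group but the iCMs. In cardiomyocytes 4 of the 12 macrophage markers (Adgre1, Csf1r, Msr1 and Itgam) were under background, and in the other 5 groups none was. For 7 measured proliferation markers the range was 6.71 to 7.14 log2 in 4-week iCMs and 7.60 to 7.75 in 2-week iCMs. It was 8.29 to 8.67 in 4-week and 9.78 to 9.97 in 2-week GFP- cells. Cardiomyocytes gave 9.26 to 9.71 and fibroblasts 8.92 to 9.29. Of that list Bub1 and Plk1 were under background in 4-week iCMs. The part of proliferation in the members was not tested. Replicate 2 of the 2-week GFP- cells stood above the other 2 arrays of its group in several members and in the fibroblast markers (9.22 against 8.78 and 8.89 log2). It also stood above them in cardiomyocyte (8.60 against 8.27 and 8.40), smooth muscle and pericyte (8.05 against 7.62 and 7.92) and mesothelial and epicardial markers (8.61 against 8.20 and 8.27). Its macrophage markers were about equal (11.97 against 11.98 and 11.96), and its endothelial and proliferation markers lay between those of the others.

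Counts of members called were taken first, beside the share of all genes called in the same direction. In 2-week iCMs 17 members were higher than in fibroblasts (35.4% of members, against 17.4% of all genes) and 13 lower (27.1% against 15.8%). At 4 weeks the iCMs had 12 members higher (25% against 14.3%) and 10 lower (20.8% against 15.2%) than fibroblasts. Without replicate 2 of the fibroblasts 7 members were higher at 4 weeks. Against GFP- cells, 17 members were higher (35.4% against 16.2%) and 8 lower (16.7% against 18.4%) in 2-week iCMs. The 4-week iCMs had 14 higher (29.2% against 17.2%) and 11 lower (22.9% against 17.1%) than GFP- cells of their week. Of these 8 shares, 7 were above that of all genes, and the share lower in 2-week iCMs than in GFP- cells was near it. Without replicate 2 of the 2-week GFP- cells the 2-week counts were 16 higher and 7 lower. Acvr1c, an activin and nodal receptor, is counted as higher in all 4 of these comparisons, although its mean was under background in every group.

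The end points differed too: in cardiomyocytes 10 members were higher, Acvr1c again among them (20.8% against 19.6%), and 16 lower (33.3% against 21.5%) than in fibroblasts. Set against cardiomyocytes, 2-week iCMs had 21 members higher (43.8% against 22.7%) and 6 lower (12.5% against 19.4%), and 4-week iCMs 17 higher (35.4% against 19%) and 6 lower (12.5% against 16.1%). GFP- cells against fibroblasts had 2 members higher (4.17% against 13.8%) and 12 lower (25% against 8.93%) at 2 weeks, and 5 higher (10.4% against 5.79%) and 7 lower (14.6% against 5.7%) at 4 weeks. The 4-week counts fell to 3 higher without replicate 1 or 2 of the 4-week GFP- cells, and to 3 lower without replicate 3 of those cells or replicate 1 of the fibroblasts. From one comparison to the next the median difference of the members lay between -0.07 and 0.21 log2, and that of all genes between -0.06 and 0.05. The heat map of the members by array shows where single genes depart from that middle.

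**Figure D1:**
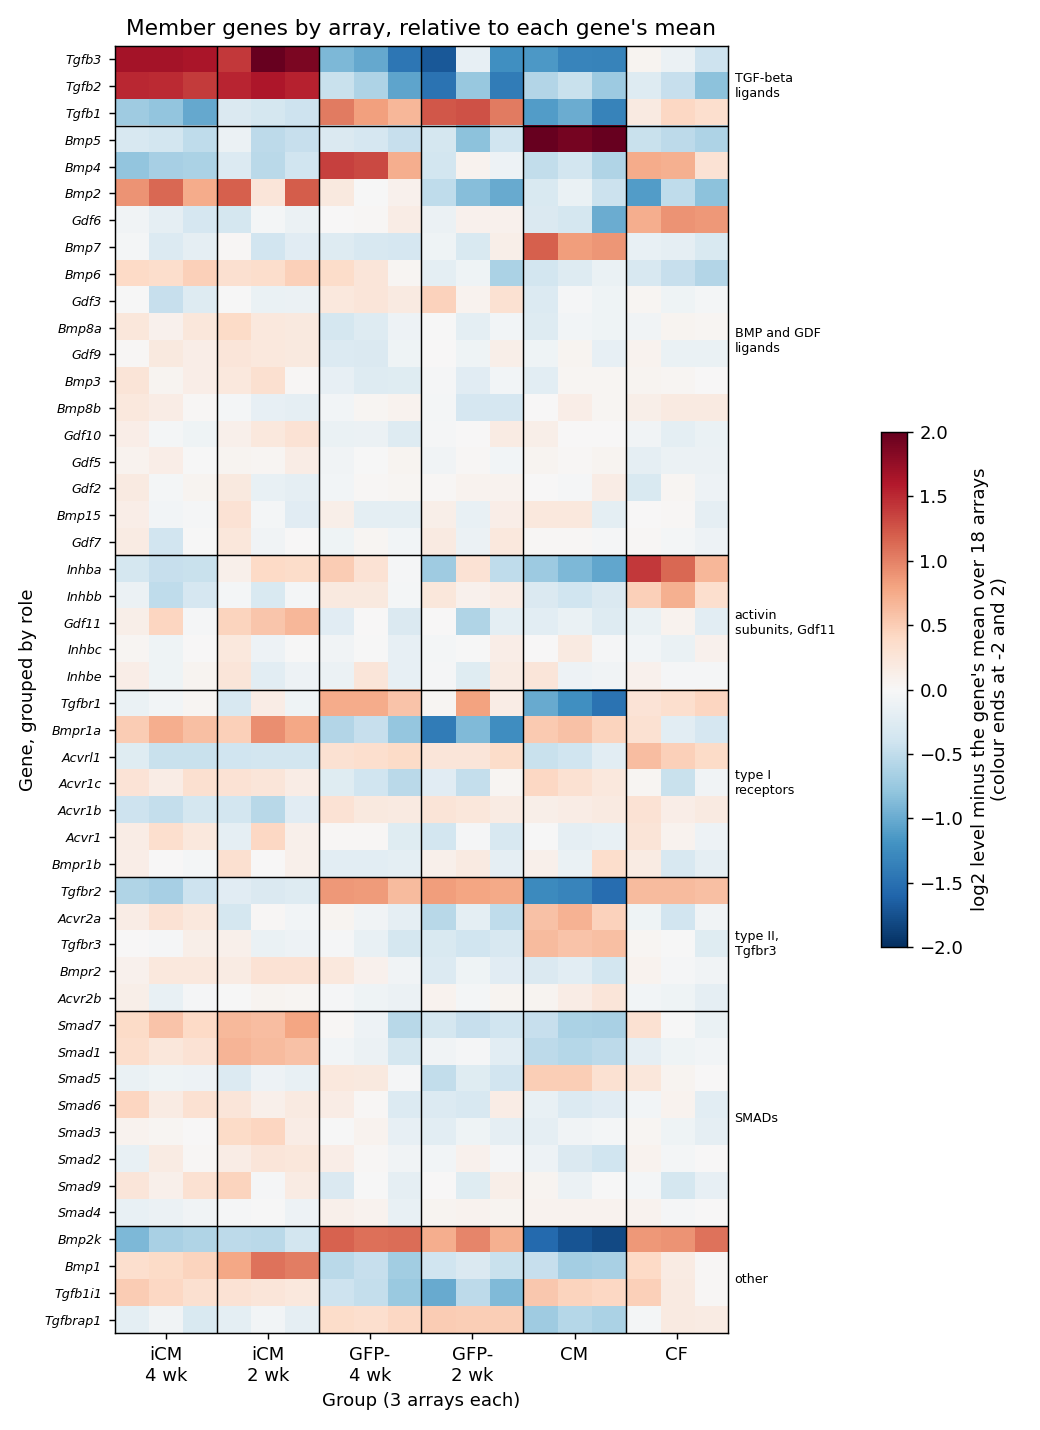
Heat map of the 48 member genes (rows, grouped by role) over 18 arrays (columns, 3 per group), coloured by log2 level minus the gene's mean over all arrays, with colours ending at -2 and 2. Tgfb3 and Tgfb2 are red in all 6 iCM arrays, Bmp5 and Bmp7 are reddest in the cardiomyocyte arrays, and Tgfb1, Tgfbr2 and Bmp2k are blue in iCM and cardiomyocyte arrays.

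Among the 3 TGF-beta ligands, Tgfb2 and Tgfb3 rose in iCMs while Tgfb1 fell, against fibroblasts as well as GFP- cells, at both weeks. The largest span of any member was that of Tgfb3. Tgfb3 stood at 10.30, 10.30 and 10.27 log2 in 4-week iCMs and 10.05, 11.11 and 10.53 in 2-week iCMs. Values of Tgfb3 in GFP- cells were 7.74, 7.62 and 7.20 at 4 weeks and 6.95, 8.48 and 7.42 at 2 weeks. Neonatal cardiomyocytes gave 7.50, 7.32 and 7.30 for Tgfb3, and cardiac fibroblasts 8.69, 8.52 and 8.23. All 6 iCM arrays lay above the other 12. The mean over mesothelial and epicardial markers was also highest in iCMs, although Lrrn4 and Krt8 of that list were highest in fibroblasts. The part of these markers in Tgfb2 and Tgfb3 was not tested. The difference of iCMs minus GFP- cells was 2.95 ± 0.28 log2 at 2 weeks (7.72-fold higher, adjusted p = 3.61e-08) and 2.77 ± 0.28 at 4 weeks (6.82-fold, adjusted p = 9.39e-08). Against fibroblasts Tgfb3 was higher by 2.08 ± 0.28 at 2 weeks and 1.81 ± 0.28 at 4 weeks, and against cardiomyocytes by 3.19 ± 0.28 and 2.91 ± 0.28. Cardiomyocytes were lower than fibroblasts (-1.11 ± 0.28), so that iCMs lay outside the range between the end points. In GFP- cells Tgfb3 was lower than in fibroblasts at 2 weeks (-0.87 ± 0.28), a call lost without replicate 1 or 3 of the 2-week GFP- cells or replicate 1 or 2 of the fibroblasts (adjusted p from 0.0746 to 0.194), and when only the groups compared were fitted (0.0849). At 4 weeks that difference was -0.96 ± 0.28, a call lost without replicate 2 or 3 of the 4-week GFP- cells or replicate 1 or 2 of the fibroblasts (adjusted p from 0.0565 to 0.123).

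Tgfb2 was likewise highest in iCMs. Tgfb2 reached 10.71, 10.70 and 10.61 log2 in 4-week iCMs and 10.73, 10.81 and 10.75 in 2-week iCMs. Values of Tgfb2 in GFP- cells were 8.76, 8.58 and 8.15 at 4 weeks and 7.72, 8.45 and 7.80 at 2 weeks. Neonatal cardiomyocytes gave 8.61, 8.76 and 8.48 for Tgfb2, and cardiac fibroblasts 8.94, 8.74 and 8.38. Again the 6 iCM arrays lay above all others. Tgfb2 differed between iCMs and GFP- cells by 2.78 ± 0.17 at 2 weeks (6.85-fold) and 2.17 ± 0.17 at 4 weeks (4.52-fold), and between iCMs and fibroblasts by 2.08 ± 0.17 and 1.99 ± 0.17. The end points themselves could not be separated (-0.07 ± 0.17, adjusted p = 0.799).

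Tgfb1, the isoform best known from immune cells and platelets, ran the other way. Tgfb1 read 8.03, 7.96 and 7.73 log2 in 4-week iCMs and 8.45, 8.39 and 8.34 in 2-week iCMs. Values of Tgfb1 in GFP- cells were 9.79, 9.57 and 9.42 at 4 weeks and 9.99, 10.02 and 9.78 at 2 weeks. Neonatal cardiomyocytes gave 7.63, 7.75 and 7.42 for Tgfb1, and cardiac fibroblasts 8.93, 9.16 and 9.08. The GFP- arrays were the highest, fibroblasts came next, and every iCM and cardiomyocyte array lay below those. Tgfb1 was lower in iCMs, with differences from GFP- cells of -1.54 ± 0.11 at 2 weeks and -1.68 ± 0.11 at 4 weeks, and from fibroblasts of -0.66 ± 0.11 and -1.15 ± 0.11. GFP- cells exceeded fibroblasts by 0.88 ± 0.11 at 2 weeks and 0.53 ± 0.11 at 4 weeks. The macrophage markers given above were likewise lower in iCMs and cardiomyocytes, and their part in the values of Tgfb1 was not tested.

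**Figure D2:**
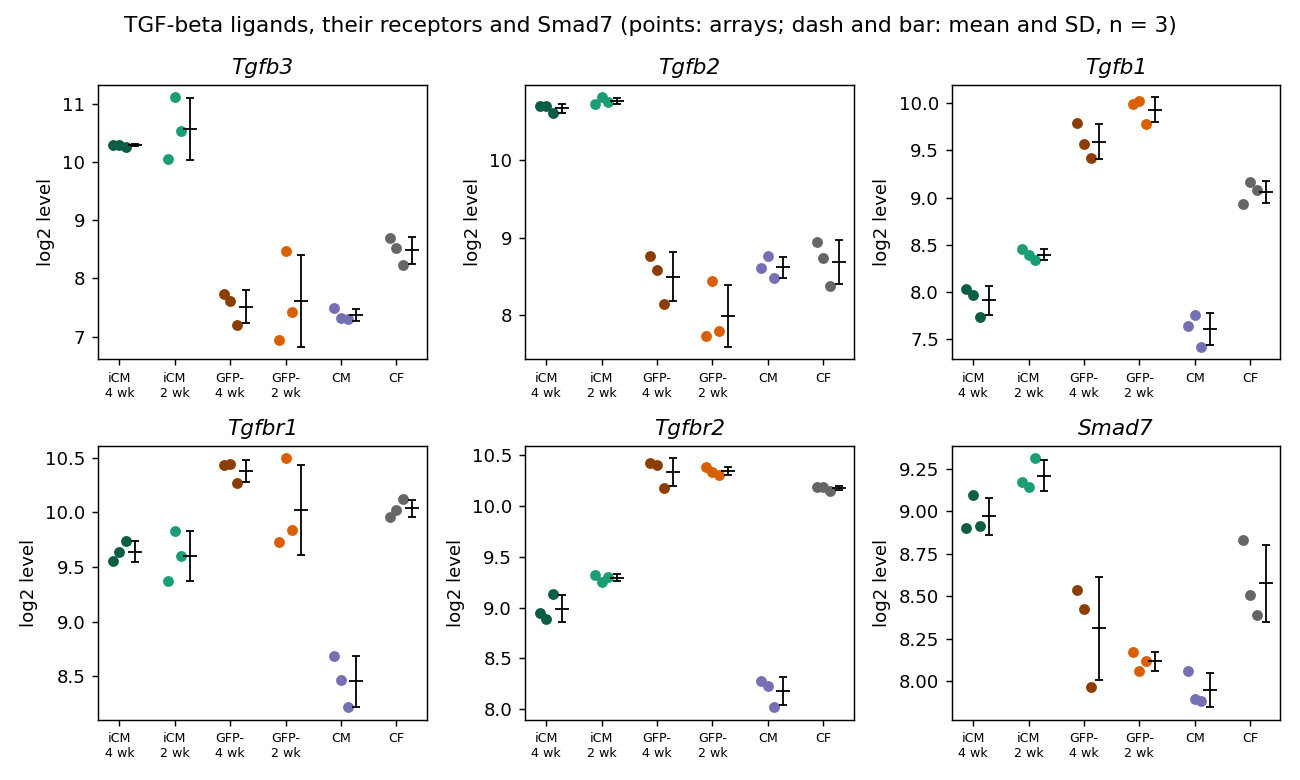
Log2 level of Tgfb3, Tgfb2, Tgfb1, Tgfbr1, Tgfbr2 and Smad7 in each array (points, 3 per group), with the group mean and SD (dash and bar). Tgfb3 and Tgfb2 stand above 10 log2 in all iCM arrays and under 9 in all others, whereas Tgfb1 and Tgfbr2 stand higher in GFP- cells and fibroblasts than in iCMs and cardiomyocytes.

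The promoters of Tgfb2 and Tgfb1 are shown because these ligands moved in opposite directions. Each window runs from 250 bases before to 50 bases after the RefSeq start (build GRCm38.p6), in the direction of the gene, Tgfb2 at chr1:186705940-186706239, minus strand, and Tgfb1 at chr7:25686752-25687051, plus strand. Capitals mark matches, on either strand, to a TATA box (TATAAA), an E-box (CACGTG), the core of a cAMP response element (TGACG), an Sp1 site (GGGCGG), an AP-1 site (TGACTCA) or a SMAD box (CAGAC).
Tgfb2: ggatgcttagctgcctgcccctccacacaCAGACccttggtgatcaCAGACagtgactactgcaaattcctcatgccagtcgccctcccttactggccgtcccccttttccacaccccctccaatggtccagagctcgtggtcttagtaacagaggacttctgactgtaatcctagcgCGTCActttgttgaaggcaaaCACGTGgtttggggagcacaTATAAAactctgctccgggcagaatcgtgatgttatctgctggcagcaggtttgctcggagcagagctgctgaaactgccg
Tgfb1: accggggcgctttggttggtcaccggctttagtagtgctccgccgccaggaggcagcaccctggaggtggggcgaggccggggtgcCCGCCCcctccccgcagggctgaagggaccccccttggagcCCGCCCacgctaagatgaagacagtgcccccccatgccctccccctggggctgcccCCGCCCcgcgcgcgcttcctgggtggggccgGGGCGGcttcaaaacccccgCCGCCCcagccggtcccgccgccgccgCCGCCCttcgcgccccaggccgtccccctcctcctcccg
The Tgfb2 window is 54.3% G or C and holds a TATA box whose first base lies 31 bases before the start, an E-box at 51, the cAMP element core at 72 on the opposite strand, and SMAD boxes at 204 and 221. The Tgfb1 window is 77% G or C and holds 6 Sp1 sites and no match to the other motifs. No matches overlapped. In 32851 windows of all genes the TATA box was found in 13.6%, the E-box in 7.15%, the cAMP element core in 20.8%, the Sp1 site in 35.7%, the AP-1 site in 5.2% and the SMAD box in 49.6%. RefSeq windows matched 33 of the 48 members, 40 windows in all, in which those shares were 15%, 12.5%, 17.5%, 67.5%, 0% and 40% in the same order. These are matches of letters, and binding was not measured.

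Genes that hold TGF-beta latent in the matrix or release it were taken from a list of 13, of which 12 were measured. In 2-week iCMs 6 of 12 were called higher and 2 lower than in GFP- cells, and at 4 weeks 3 and 2. Against fibroblasts 1 was higher and 5 lower at 2 weeks, 2 and 6 at 4 weeks. Among all genes 16.2% were higher and 18.4% lower than in GFP- cells at 2 weeks, and 17.2% and 17.1% at 4 weeks. Against fibroblasts the shares of all genes were 17.4% and 15.8% at 2 weeks, and 14.3% and 15.2% at 4 weeks. Itgb6, an integrin chain, is counted as higher in 4-week iCMs in both comparisons with its mean under background in every group. The list's median difference from GFP- cells was 0.26 log2 at 2 weeks and 0.08 at 4 weeks. Ltbp1, which anchors latent TGF-beta in the matrix, averaged 9.54 ± 0.62 log2 in 2-week iCMs and 7.83 ± 0.38 in GFP- cells (SD, n = 3 each), a difference of 1.71 ± 0.23, and 1.54 ± 0.23 at 4 weeks. Nrros, which presents latent TGF-beta on myeloid cells, differed by -1.71 ± 0.14 and -2.30 ± 0.14, in the direction of the macrophage markers, whose part was not tested. Thbs1, thrombospondin, an activator of the latent form, was lower in cardiomyocytes than in fibroblasts (-3.23 ± 0.17). Itgav, an integrin chain that activates it, was higher in 4-week iCMs than in cardiomyocytes (2.16 ± 0.13), its lowest group, and than in GFP- cells (0.42 ± 0.13). From fibroblasts 4-week iCMs were not separated by the test (0.18 ± 0.13, adjusted p = 0.361).

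Among the BMP and GDF ligands 6 of 16 were called higher and 3 lower in 2-week iCMs than in fibroblasts, and 4 and 1 than in GFP- cells. At 4 weeks 3 were higher and 2 lower than in fibroblasts, and 4 and 2 than in GFP- cells. The shares of all genes at 2 weeks were 17.4% and 15.8% against fibroblasts, and 16.2% and 18.4% against GFP- cells. At 4 weeks those shares were 14.3% and 15.2%, and 17.2% and 17.1%. Bmp2, a ligand used in development to induce cardiac genes, rose in iCMs. Bmp2 stood at 8.83, 9.08 and 8.68 log2 in 4-week iCMs and 9.13, 8.18 and 9.15 in 2-week iCMs. Values of Bmp2 in GFP- cells were 8.14, 7.93 and 8.03 at 4 weeks and 7.43, 7.09 and 6.93 at 2 weeks. Neonatal cardiomyocytes gave 7.63, 7.81 and 7.51 for Bmp2, and cardiac fibroblasts 6.82, 7.43 and 7.11. All iCM arrays lay above all other arrays, with replicate 2 at 2 weeks the lowest of them. The difference from fibroblasts was 1.70 ± 0.21 at 2 weeks and 1.75 ± 0.21 at 4 weeks, and that from GFP- cells 1.67 ± 0.21 and 0.83 ± 0.21. GFP- cells rose by 0.89 ± 0.21 between the weeks, while iCMs gave 0.04 ± 0.21 (adjusted p = 0.937). The test of that contrast in time did not pass (adjusted p = 0.129).

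Bmp6, which also acts on iron balance, averaged 8.71 ± 0.07 log2 in 4-week iCMs, 8.68 ± 0.08 in 2-week iCMs, 8.52 ± 0.17 in 4-week GFP- cells, 7.99 ± 0.29 in 2-week GFP- cells, 8.04 ± 0.12 in cardiomyocytes and 7.84 ± 0.14 in fibroblasts (SD, n = 3 each). In iCMs it was above fibroblasts by 0.84 ± 0.12 at 2 weeks and 0.87 ± 0.12 at 4 weeks. In 4-week GFP- cells Bmp6 was also above fibroblasts (0.67 ± 0.12), and iCMs of that week did not differ from them by the test (0.20 ± 0.12, adjusted p = 0.252).

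Bmp4, a ligand of mesoderm and of the outflow tract, moved with time in GFP- cells. Bmp4 lay at 7.87, 7.99 and 8.02 log2 in 4-week iCMs and 8.38, 8.11 and 8.25 in 2-week iCMs. Values of Bmp4 in GFP- cells were 10.02, 9.98 and 9.37 at 4 weeks and 8.28, 8.73 and 8.55 at 2 weeks. Neonatal cardiomyocytes gave 8.16, 8.28 and 8.05 for Bmp4, and cardiac fibroblasts 9.40, 9.36 and 8.94. The 4-week GFP- arrays and the fibroblast arrays overlapped and lay above all arrays of the other 4 groups. Bmp4 was higher in 4-week than in 2-week GFP- cells by 1.27 ± 0.15 (2.41-fold, adjusted p = 1.32e-05), whereas iCMs gave -0.29 ± 0.15 (adjusted p = 0.272). The mean over endothelial markers was higher in the 4-week GFP- arrays too, although Kdr was lower there than at 2 weeks. Over the groups that mean was lowest in fibroblasts (6.75 log2), where Bmp4 was high, and highest in cardiomyocytes (8.76), where Bmp4 was low. Of the fibroblast markers, Lum, Dcn, Pdgfra, Mfap5, Fn1 and Col3a1 had higher means in 4-week than in 2-week GFP- cells, and the others lower ones. The part of either list in Bmp4 was not tested. The change in iCMs minus that in GFP- cells was -1.56 ± 0.22 (adjusted p = 0.000335). The difference from fibroblasts was -0.99 ± 0.15 in 2-week iCMs, -1.28 ± 0.15 in 4-week iCMs and -1.07 ± 0.15 in cardiomyocytes. In 2-week iCMs and GFP- cells Bmp4 was not separated by the test (-0.28 ± 0.15, adjusted p = 0.203), and at 4 weeks it was (-1.83 ± 0.15).

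Bmp5 and Bmp7, ligands with overlapping roles in the developing heart, were high in cardiomyocytes. Bmp5 gave 6.01, 5.96 and 5.82 log2 in 4-week iCMs and 6.21, 5.80 and 5.87 in 2-week iCMs. Values of Bmp5 in GFP- cells were 6.04, 5.99 and 5.87 at 4 weeks and 5.98, 5.52 and 5.93 at 2 weeks. Neonatal cardiomyocytes gave 8.71, 8.24 and 8.59 for Bmp5, and cardiac fibroblasts 5.88, 5.81 and 5.72. In the 5 other groups the mean of Bmp5 was under background, so that cardiomyocytes were at least 4.38-fold higher than fibroblasts (adjusted p = 1.1e-12) and by the same bound higher than iCMs of either week. Bmp7 held at 7.20, 6.96 and 7.05 log2 in 4-week iCMs and 7.26, 6.85 and 7.02 in 2-week iCMs. Values of Bmp7 in GFP- cells were 6.99, 6.92 and 6.91 at 4 weeks and 7.15, 6.93 and 7.35 at 2 weeks. Neonatal cardiomyocytes gave 8.44, 8.07 and 8.12 for Bmp7, and cardiac fibroblasts 7.09, 7.06 and 6.93. Here too the cardiomyocyte arrays lay above the other 15. Bmp7 was lower in iCMs than in cardiomyocytes (-1.17 ± 0.12 at 2 weeks and -1.13 ± 0.12 at 4 weeks), and its differences from fibroblasts were 0.01 ± 0.12 (adjusted p = 0.946) and 0.05 ± 0.12 (0.849). The mean over smooth muscle and pericyte markers was also highest in the cardiomyocyte arrays. Of that list Rgs5, Kcnj8, Abcc9 and Cnn1 were highest there. Acta2, Tagln, Myh11 and Cspg4 were highest in iCMs, and Tagln was lowest in cardiomyocytes. The mean over endothelial markers was high in cardiomyocytes as well as in 4-week GFP- cells. The part of either list in Bmp5 and Bmp7 was not tested.

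**Figure D3:**
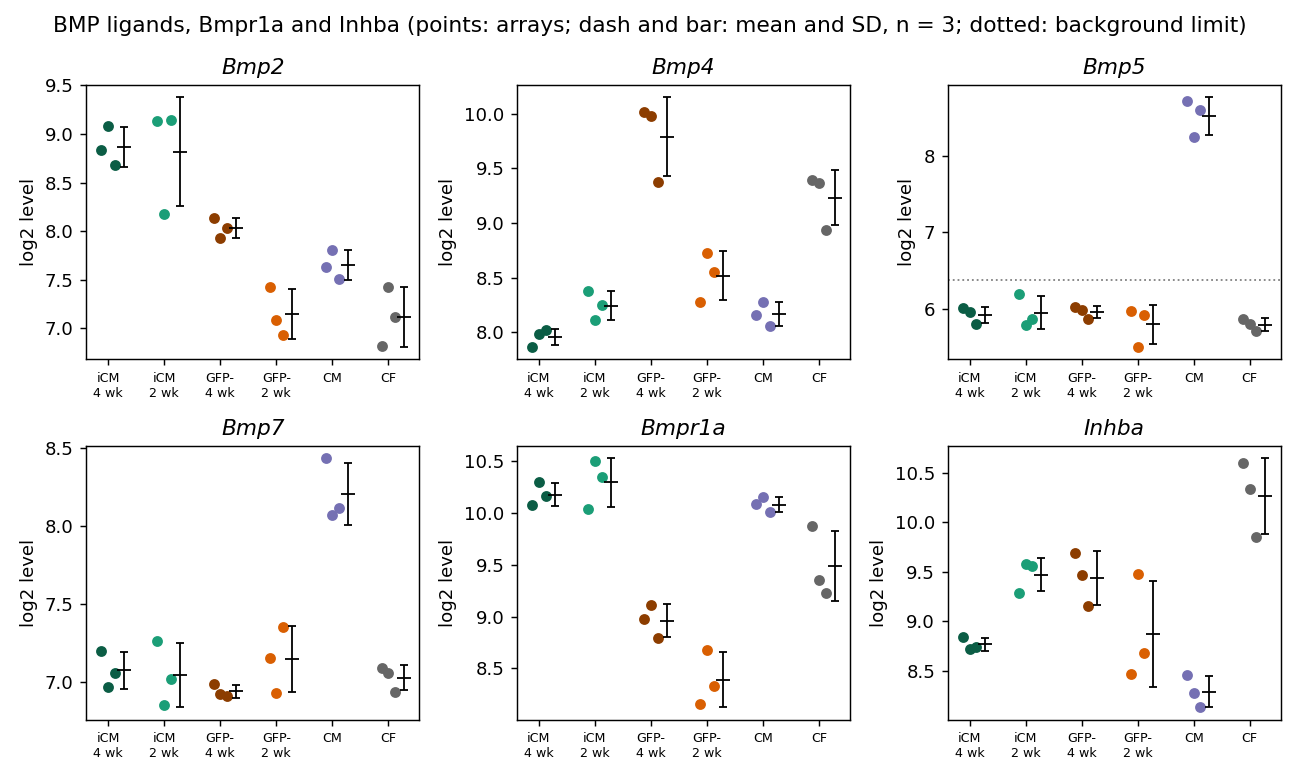
Log2 level of Bmp2, Bmp4, Bmp5, Bmp7, Bmpr1a and Inhba in each array (points, 3 per group), with the group mean and SD (dash and bar) and, where it falls in the panel, the background limit (dotted, 6.38 log2). Bmp2 stands highest in iCMs, Bmp5 and Bmp7 in cardiomyocytes, Bmp4 in 4-week GFP- cells and fibroblasts, and Inhba in fibroblasts.

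Gdf6, a ligand of joints and skeletal boundaries, was highest in fibroblasts. Gdf6 came to 7.29, 7.19 and 7.03 log2 in 4-week iCMs and 7.02, 7.32 and 7.24 in 2-week iCMs. Values of Gdf6 in GFP- cells were 7.37, 7.39 and 7.51 at 4 weeks and 7.26, 7.46 and 7.46 at 2 weeks. Neonatal cardiomyocytes gave 7.09, 7.02 and 6.37 for Gdf6, and cardiac fibroblasts 8.10, 8.27 and 8.24. Every other array lay below the 3 fibroblast arrays. The difference from fibroblasts was -1.01 ± 0.14 and -1.03 ± 0.14 in iCMs, -0.81 ± 0.14 and -0.78 ± 0.14 in GFP- cells, at 2 and 4 weeks, and -1.38 ± 0.14 in cardiomyocytes. The remaining 10 ligands of this class (Bmp3, Bmp8a, Bmp8b, Bmp15, Gdf2, Gdf3, Gdf5, Gdf7, Gdf9 and Gdf10) spanned at most 0.52 log2 between group means. Among them Bmp8a was higher in iCMs than in GFP- cells, by 0.34 ± 0.09 and 0.42 ± 0.09.

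Secreted BMP antagonists and modulators came from a list of 14, of which 13 were measured. In 2-week iCMs 4 of 13 were called higher and 1 lower than in fibroblasts, and 4 and 0 than in GFP- cells. At 4 weeks the counts were 3 and 1 against fibroblasts, and 4 and 1 against GFP- cells. Of all genes, 17.4% were higher and 15.8% lower than in fibroblasts at 2 weeks, and 14.3% and 15.2% at 4 weeks. Against GFP- cells the shares of all genes were 16.2% and 18.4%, then 17.2% and 17.1%. The list's median difference from GFP- cells was 0.09 log2 at 2 weeks and 0.15 at 4 weeks. Crim1, a membrane protein that tethers BMPs, was higher in 2-week iCMs than in fibroblasts (0.70 ± 0.15), GFP- cells (1.03 ± 0.15) and cardiomyocytes (2.46 ± 0.15). Twsg1, a cofactor of chordin, rose against GFP- cells by 0.85 ± 0.08 and 0.91 ± 0.08 at 2 and 4 weeks. Grem1, gremlin, was higher in 4-week iCMs than in fibroblasts (0.70 ± 0.13). Bmper, a BMP-binding protein of endothelium, was lower in 2-week and 4-week iCMs than in fibroblasts (-1.18 ± 0.17 and -1.73 ± 0.17).

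Activin subunits were led by Inhba, the chain of activin A. Inhba registered 8.84, 8.72 and 8.74 log2 in 4-week iCMs and 9.28, 9.58 and 9.56 in 2-week iCMs. Values of Inhba in GFP- cells were 9.69, 9.47 and 9.16 at 4 weeks and 8.47, 9.47 and 8.68 at 2 weeks. Neonatal cardiomyocytes gave 8.46, 8.28 and 8.14 for Inhba, and cardiac fibroblasts 10.60, 10.34 and 9.85. Fibroblast arrays were the highest, all above the other 15, and replicate 2 of the 2-week GFP- cells stood apart from the other two of its group. The difference of Inhba from fibroblasts was -0.79 ± 0.21 in 2-week iCMs, -1.49 ± 0.21 in 4-week iCMs and -1.97 ± 0.21 in cardiomyocytes. Its difference from GFP- cells was 0.60 ± 0.21 at 2 weeks, a call lost without replicate 1 or 3 of the 2-week GFP- cells or replicate 2 or 3 of the 2-week iCMs (adjusted p from 0.0903 to 0.194), and when only the groups compared were fitted (0.0693). At 4 weeks it was -0.67 ± 0.21, a call lost without replicate 1 of the 4-week GFP- cells (adjusted p = 0.0868). The change from 2 to 4 weeks in iCMs minus that in GFP- cells was -1.27 ± 0.29 (adjusted p = 0.0167), a call lost without replicate 1 or 3 of the 2-week GFP- cells or replicate 1 of the 4-week GFP- cells (adjusted p from 0.0501 to 0.056).

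The promoters of Bmp4 and Inhba are shown because these are the ligand genes whose course in time differed between iCMs and GFP- cells. The windows and capitals are as for Tgfb2, with Bmp4 at chr14:46390620-46390919, minus strand, and Inhba at chr13:16011601-16011900, plus strand (build GRCm38.p6).
Bmp4: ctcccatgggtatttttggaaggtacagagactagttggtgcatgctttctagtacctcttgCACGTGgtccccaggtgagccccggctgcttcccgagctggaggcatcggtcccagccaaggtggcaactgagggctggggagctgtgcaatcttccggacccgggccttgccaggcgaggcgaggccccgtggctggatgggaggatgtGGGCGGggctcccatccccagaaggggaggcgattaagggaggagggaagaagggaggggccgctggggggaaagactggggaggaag
Inhba: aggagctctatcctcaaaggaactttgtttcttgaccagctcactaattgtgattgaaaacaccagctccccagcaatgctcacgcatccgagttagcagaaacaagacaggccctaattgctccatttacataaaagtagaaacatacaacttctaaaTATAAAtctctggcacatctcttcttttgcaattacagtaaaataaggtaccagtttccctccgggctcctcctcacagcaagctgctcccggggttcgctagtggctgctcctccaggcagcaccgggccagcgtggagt
The Bmp4 window (64% G or C) holds an E-box 188 bases and an Sp1 site 38 bases before the start. That of Inhba (47.7%) holds a TATA box 91 bases before it and no other match.

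Inhbb, the chain of activin B, averaged 7.62 ± 0.19 log2 in 4-week iCMs, 7.82 ± 0.16 in 2-week iCMs, 8.06 ± 0.14 in 4-week GFP- cells, 8.09 ± 0.07 in 2-week GFP- cells, 7.62 ± 0.06 in cardiomyocytes and 8.45 ± 0.19 in fibroblasts (SD, n = 3 each). Against fibroblasts it was lower in iCMs (-0.64 ± 0.11 at 2 weeks and -0.83 ± 0.11 at 4 weeks). Gdf11, a close relative of myostatin, was higher in 2-week iCMs than in fibroblasts (0.65 ± 0.14), GFP- cells (0.82 ± 0.14) and cardiomyocytes (0.75 ± 0.14). Inhbc, and Inhbe under background, spanned at most 0.13 log2. Of 9 further activin and nodal ligands and traps, 3 were higher and 0 lower in 2-week iCMs than in GFP- cells, and 2 and 2 at 4 weeks. Of those higher at 4 weeks, Lefty2, a nodal antagonist, was under background in both groups. The shares of all genes were 16.2% higher and 18.4% lower at 2 weeks, and 17.2% and 17.1% at 4 weeks. These 9 had a median difference from GFP- cells of 0.08 log2 at 2 weeks and 0.11 at 4 weeks. Fst, follistatin, the trap of activin, averaged 8.65 ± 0.12 log2 in 4-week iCMs, 9.82 ± 0.64 in 2-week iCMs, 9.75 ± 0.28 in 4-week GFP- cells, 9.16 ± 0.54 in 2-week GFP- cells, 7.55 ± 0.20 in cardiomyocytes and 8.37 ± 0.34 in fibroblasts (SD, n = 3 each). In iCMs it was lower at 4 than at 2 weeks (-1.17 ± 0.27), and the change in iCMs minus that in GFP- cells was -1.75 ± 0.38 (adjusted p = 0.00993). Fstl1, a secreted follistatin relative, was lower in 4-week than in 2-week iCMs (-0.94 ± 0.18). Inha, the inhibin alpha chain, was higher in iCMs than in GFP- cells by 0.73 ± 0.16 and 0.72 ± 0.16.

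Among the receptors, Tgfbr2 fell in iCMs and Bmpr1a rose. Tgfbr2 is the type II receptor of TGF-beta. Tgfbr2 showed values at 8.95, 8.88 and 9.13 log2 in 4-week iCMs and 9.32, 9.25 and 9.30 in 2-week iCMs. Values of Tgfbr2 in GFP- cells were 10.42, 10.40 and 10.18 at 4 weeks and 10.38, 10.34 and 10.30 at 2 weeks. Neonatal cardiomyocytes gave 8.28, 8.23 and 8.02 for Tgfbr2, and cardiac fibroblasts 10.18, 10.18 and 10.15. GFP- and fibroblast arrays lay together above 10 log2, the iCM arrays lay below them, and the cardiomyocyte arrays lay below those. Tgfbr2 was lower in iCMs of 2 and 4 weeks than in fibroblasts (-0.88 ± 0.09 and -1.18 ± 0.09) and than in GFP- cells (-1.05 ± 0.09 and -1.34 ± 0.09), and lower in cardiomyocytes than in fibroblasts (-1.99 ± 0.09). Macrophage markers had the same order of group means, and their part in that of Tgfbr2 was not tested.

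Tgfbr1, the type I kinase that Tgfbr2 recruits, was lowest in cardiomyocytes. Tgfbr1 measured at 9.55, 9.64 and 9.74 log2 in 4-week iCMs and 9.38, 9.83 and 9.61 in 2-week iCMs. Values of Tgfbr1 in GFP- cells were 10.43, 10.44 and 10.27 at 4 weeks and 9.73, 10.50 and 9.84 at 2 weeks. Neonatal cardiomyocytes gave 8.69, 8.47 and 8.22 for Tgfbr1, and cardiac fibroblasts 9.96, 10.03 and 10.12. Only the cardiomyocyte arrays lay clear of all others. In cardiomyocytes Tgfbr1 was lower than in fibroblasts (-1.58 ± 0.16). Relative to GFP- cells it was lower in 4-week iCMs (-0.74 ± 0.16). At 2 weeks the difference from GFP- cells was -0.42 ± 0.16, a call lost without replicate 2 of the 2-week GFP- cells or replicate 1 or 3 of the 2-week iCMs (adjusted p from 0.0997 to 0.346), with an intensity trend and array weights (0.123), and when only the groups compared were fitted (0.149). That from fibroblasts was -0.43 ± 0.16, a call lost without replicate 1 or 3 of the 2-week iCMs or replicate 1 or 2 or 3 of the fibroblasts (adjusted p from 0.0607 to 0.188).

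Bmpr1a, a type I BMP receptor needed in heart development, was high in iCMs and cardiomyocytes. Bmpr1a ran at 10.07, 10.29 and 10.16 log2 in 4-week iCMs and 10.04, 10.50 and 10.34 in 2-week iCMs. Values of Bmpr1a in GFP- cells were 8.98, 9.11 and 8.80 at 4 weeks and 8.16, 8.68 and 8.33 at 2 weeks. Neonatal cardiomyocytes gave 10.08, 10.15 and 10.01 for Bmpr1a, and cardiac fibroblasts 9.87, 9.36 and 9.23. All arrays of iCMs and cardiomyocytes lay above all arrays of GFP- cells and fibroblasts. Bmpr1a exceeded GFP- cells by 1.90 ± 0.15 at 2 weeks (3.74-fold) and 1.22 ± 0.15 at 4 weeks, and fibroblasts by 0.81 ± 0.15 and 0.69 ± 0.15. From cardiomyocytes iCMs were not separated by the test (0.21 ± 0.15, adjusted p = 0.305, and 0.10 ± 0.15, 0.716). The 2-week GFP- cells were below fibroblasts (-1.10 ± 0.15).

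Other receptors spanned under 1 log2 between group means. Acvrl1, a type I receptor best known from endothelium, was lower than in fibroblasts in 2-week iCMs (-0.87 ± 0.09), 4-week iCMs (-0.87 ± 0.09) and cardiomyocytes (-0.84 ± 0.09). Acvr1b, a type I receptor of activin and nodal, averaged 7.12 ± 0.07 log2 in 4-week iCMs, 7.16 ± 0.16 in 2-week iCMs, 7.76 ± 0.06 in 4-week GFP- cells, 7.76 ± 0.05 in 2-week GFP- cells, 7.69 ± 0.03 in cardiomyocytes and 7.74 ± 0.08 in fibroblasts (SD, n = 3 each). Unlike Tgfbr2 it was lower in iCMs than in both end points, with differences from cardiomyocytes of -0.53 ± 0.09 and -0.57 ± 0.09 at 2 and 4 weeks, and from fibroblasts of -0.58 ± 0.09 and -0.62 ± 0.09. Acvr2a, a type II receptor of activins and BMPs, and Tgfbr3, betaglycan, a co-receptor, were higher in cardiomyocytes than in fibroblasts (0.75 ± 0.12 and 0.68 ± 0.10). Bmpr2, the main type II BMP receptor, was higher in iCMs than in cardiomyocytes (0.53 ± 0.09 and 0.45 ± 0.09). Acvr1 and Acvr2b spanned 0.46 and 0.25 log2, and Acvr1c and Bmpr1b were under background. Of 7 further co-receptors, 3 were higher and 0 lower in 2-week iCMs than in GFP- cells, and 3 and 1 at 4 weeks. Among all genes the shares were 16.2% and 18.4% at 2 weeks, and 17.2% and 17.1% at 4 weeks. Over the 7 the median difference was 0.25 log2 at 2 weeks and 0.25 at 4 weeks. Bambi, a receptor-like inhibitor without a kinase domain, was higher than in GFP- cells by 0.98 ± 0.13 and 0.81 ± 0.13. Hjv, hemojuvelin, a BMP co-receptor, was higher in cardiomyocytes than in fibroblasts (1.73 ± 0.12). Rgmb, of the same family, was higher in 2-week iCMs than in cardiomyocytes (0.66 ± 0.12). It was not separated by the test from fibroblasts (0.29 ± 0.12, adjusted p = 0.0661) or GFP- cells (0.13 ± 0.12, 0.445) at that week. Eng, endoglin, was lower in 4-week iCMs than in GFP- cells (-0.72 ± 0.14), but higher at 2 weeks (0.39 ± 0.14). The mean over endothelial markers was higher in GFP- cells than in iCMs at both weeks. That mean was highest in cardiomyocytes (8.76 log2), where Eng was lowest (7.77 log2). The part of these markers was not tested.

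**Figure D4:**
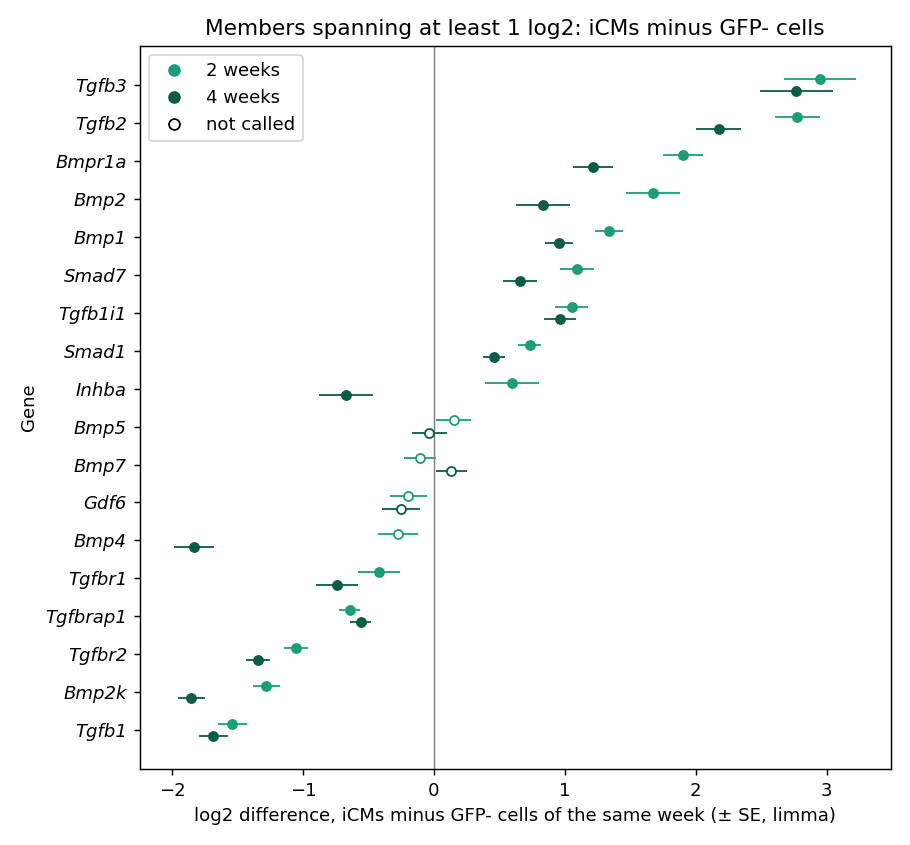
Log2 difference of iCMs minus GFP- cells of the same week, with its SE, for the 18 members whose group means spanned at least 1 log2 and rose above background (filled points: called). Tgfb3 lies farthest to the right, at 2.95 at 2 weeks and 2.77 at 4 weeks, Bmp2k reaches -1.85 at 4 weeks, and Inhba lies on opposite sides of 0 at 2 and 4 weeks.

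Of the 8 SMADs, 3 were higher and 0 lower in 2-week iCMs than in GFP- cells, and 4 and 0 at 4 weeks. Among all genes the shares were 16.2% and 18.4% at 2 weeks, and 17.2% and 17.1% at 4 weeks. Smad7, the inhibitor that TGF-beta itself induces, was the widest of the 8 SMADs. Smad7 scored 8.90, 9.10 and 8.92 log2 in 4-week iCMs and 9.17, 9.14 and 9.31 in 2-week iCMs. Values of Smad7 in GFP- cells were 8.54, 8.43 and 7.97 at 4 weeks and 8.17, 8.06 and 8.12 at 2 weeks. Neonatal cardiomyocytes gave 8.06, 7.90 and 7.88 for Smad7, and cardiac fibroblasts 8.83, 8.51 and 8.39. All iCM arrays lay above all other arrays. Smad7 exceeded GFP- cells by 1.09 ± 0.13 and 0.66 ± 0.13, cardiomyocytes by 1.26 ± 0.13 and 1.02 ± 0.13, and fibroblasts by 0.63 ± 0.13 at 2 weeks. At 4 weeks the difference from fibroblasts was 0.40 ± 0.13, a call lost without replicate 2 of the 4-week iCMs or replicate 2 or 3 of the fibroblasts (adjusted p from 0.087 to 0.14).

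Smad1, a transducer of BMP signals, was raised in the same cells. Smad1 had levels at 8.25, 8.13 and 8.19 log2 in 4-week iCMs and 8.58, 8.54 and 8.49 in 2-week iCMs. Values of Smad1 in GFP- cells were 7.84, 7.78 and 7.56 at 4 weeks and 7.84, 7.87 and 7.70 at 2 weeks. Neonatal cardiomyocytes gave 7.38, 7.33 and 7.37 for Smad1, and cardiac fibroblasts 7.71, 7.82 and 7.84. Both iCM groups lay above all other arrays. Smad1 differed from fibroblasts by 0.74 ± 0.09 and 0.40 ± 0.09 and from GFP- cells by 0.73 ± 0.09 and 0.46 ± 0.09. Smad3, a transducer of TGF-beta, moved little. Smad3 was at 9.07, 9.04 and 9.01 log2 in 4-week iCMs and 9.39, 9.44 and 9.15 in 2-week iCMs. Values of Smad3 in GFP- cells were 8.99, 9.07 and 8.84 at 4 weeks and 8.79, 8.91 and 8.81 at 2 weeks. Neonatal cardiomyocytes gave 8.83, 8.92 and 8.97 for Smad3, and cardiac fibroblasts 9.04, 8.91 and 8.82. The 2-week iCM arrays were the highest, above the other 15. Smad3 was higher there than in fibroblasts (0.40 ± 0.09) and GFP- cells (0.49 ± 0.09), and at 4 weeks it differed by 0.12 ± 0.09 (adjusted p = 0.409) and 0.07 ± 0.09 (0.59). Smad5, the partner of Smad1, was lower in iCMs than in cardiomyocytes (-0.60 ± 0.09 and -0.54 ± 0.09). Smad4, the common partner, spanned 0.18 log2 over the 6 groups and was called in no comparison with limma (0 of 12), and Smad2, Smad6 and Smad9 spanned 0.4 to 0.51.

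Regulators of SMADs inside the cell came from a list of 17. Of these 4 were higher and 3 lower in 2-week iCMs than in GFP- cells, and 2 and 4 at 4 weeks. The shares of all genes were 16.2% higher and 18.4% lower at 2 weeks, and 17.2% and 17.1% at 4 weeks. Over the 17 the median difference was 0.14 log2 at 2 weeks and -0.08 at 4 weeks. Zfyve9, the SARA protein that brings Smad2 and Smad3 to the receptor, was under background in 2-week GFP- cells and at least 2.32-fold higher in iCMs of that week. Sptbn1, a spectrin that acts as a SMAD adaptor, was higher by 1.14 ± 0.10 and 0.93 ± 0.10. Tgif1, a corepressor, was higher in 2-week iCMs than in cardiomyocytes (2.04 ± 0.11), and Pmepa1, an inhibitor that TGF-beta induces, was lower in 4-week iCMs than in fibroblasts (-1.58 ± 0.16).

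The 4 genes named after the families that are no ligand, receptor or SMAD also changed. Bmp1 is a protease that trims procollagen. Bmp1 measured 9.33, 9.38 and 9.44 log2 in 4-week iCMs and 9.77, 10.09 and 10.03 in 2-week iCMs. Values of Bmp1 in GFP- cells were 8.46, 8.53 and 8.30 at 4 weeks and 8.61, 8.72 and 8.55 at 2 weeks. Neonatal cardiomyocytes gave 8.55, 8.32 and 8.36 for Bmp1, and cardiac fibroblasts 9.39, 9.16 and 9.03. The 2-week iCM arrays were above all others. Bmp1 exceeded GFP- cells by 1.34 ± 0.11 and 0.95 ± 0.11, exceeded fibroblasts by 0.77 ± 0.11 at 2 weeks, and did not differ from them by the test at 4 weeks (0.19 ± 0.11, adjusted p = 0.21). Bmp2k is a kinase named after its induction by BMP2. Bmp2k amounted to 8.88, 9.13 and 9.18 log2 in 4-week iCMs and 9.26, 9.24 and 9.41 in 2-week iCMs. Values of Bmp2k in GFP- cells were 10.96, 10.89 and 10.89 at 4 weeks and 10.50, 10.76 and 10.49 at 2 weeks. Neonatal cardiomyocytes gave 8.23, 8.05 and 7.97 for Bmp2k, and cardiac fibroblasts 10.65, 10.69 and 10.87. As with Tgfbr2, GFP- and fibroblast arrays were the highest, then iCMs, then cardiomyocytes. In iCMs of 2 and 4 weeks Bmp2k was lower than in GFP- cells (-1.28 ± 0.10 and -1.85 ± 0.10) and than in fibroblasts (-1.43 ± 0.10 and -1.67 ± 0.10). The part of the macrophage markers in Bmp2k was not tested.

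Tgfb1i1, known as Hic-5, is an adhesion protein. Tgfb1i1 counted 8.59, 8.50 and 8.41 log2 in 4-week iCMs and 8.38, 8.32 and 8.29 in 2-week iCMs. Values of Tgfb1i1 in GFP- cells were 7.67, 7.61 and 7.34 at 4 weeks and 7.08, 7.56 and 7.20 at 2 weeks. Neonatal cardiomyocytes gave 8.62, 8.53 and 8.50 for Tgfb1i1, and cardiac fibroblasts 8.56, 8.26 and 8.11. GFP- arrays lay below all others. Tgfb1i1 was higher in iCMs than in GFP- cells by 1.05 ± 0.12 and 0.96 ± 0.12. The mean over smooth muscle and pericyte markers was likewise lowest in GFP- cells, although of that list only Acta2, Myh11 and Cnn1 were lowest there. Rgs5, Kcnj8, Abcc9 and Cspg4 were lowest in fibroblasts and Tagln in cardiomyocytes. The part of these markers in Tgfb1i1 was not tested. Tgfbrap1 is a receptor-associated protein that also serves in endosome tethering. Tgfbrap1 sat at 8.59, 8.70 and 8.48 log2 in 4-week iCMs and 8.58, 8.72 and 8.61 in 2-week iCMs. Values of Tgfbrap1 in GFP- cells were 9.15, 9.11 and 9.19 at 4 weeks and 9.29, 9.27 and 9.26 at 2 weeks. Neonatal cardiomyocytes gave 8.07, 8.20 and 8.15 for Tgfbrap1, and cardiac fibroblasts 8.73, 8.95 and 8.94. Here GFP- arrays were the highest and cardiomyocyte arrays the lowest. Relative to GFP- cells it was lower in iCMs (-0.64 ± 0.08 at 2 weeks and -0.56 ± 0.08 at 4 weeks). Its group means had the order of those of the macrophage markers, whose part was not tested.

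Genes known to respond to these signals were read from 2 lists. Of 18 measured TGF-beta response genes, 3 were higher and 10 lower in 2-week iCMs than in fibroblasts, and 0 and 11 at 4 weeks, with medians of -0.40 and -0.51 log2. Of all genes, 17.4% were higher and 15.8% lower at 2 weeks, and 14.3% and 15.2% at 4 weeks. The mean over fibroblast markers was lower in iCMs as well, at 8.65 in 4-week and 9.23 in 2-week iCMs, against 10.66 in fibroblasts. Among these markers only Thy1 was higher in iCMs, at 10.57 at 4 weeks and 11.54 at 2 weeks, against 9.47 in fibroblasts. The part of fibroblast markers was not tested. Acta2 and Tagln are also in the smooth muscle marker list, and Col1a1, Col1a2, Fn1 and Postn in that of fibroblasts. Against GFP- cells 7 of the 18 response genes were higher and 3 lower at 2 weeks (median 0.17), and 4 and 7 at 4 weeks (median -0.17). The shares of all genes were 16.2% and 18.4% at 2 weeks, and 17.2% and 17.1% at 4 weeks. Postn, periostin, averaged 7.01 ± 0.41 log2 in 4-week iCMs, 8.26 ± 0.73 in 2-week iCMs, 8.55 ± 0.38 in 4-week GFP- cells, 9.32 ± 0.57 in 2-week GFP- cells, 12.16 ± 0.13 in cardiomyocytes and 11.51 ± 0.12 in fibroblasts (SD, n = 3 each). Lox, a collagen crosslinking enzyme, was lower in 4-week than in 2-week iCMs (-1.72 ± 0.29), as was Timp1, a protease inhibitor (-1.0 ± 0.15). Tagln, the smooth muscle protein SM22, averaged 10.9 ± 0.2 log2 in 4-week and 10.7 ± 0.3 in 2-week iCMs (SD, n = 3 each). Its mean was 10.7 ± 0.3 in fibroblasts, near that of iCMs, and 7.7 ± 0.1 in cardiomyocytes. In a separate comparison Tagln was higher in iCMs than in GFP- cells, by 1.79 ± 0.24 at 2 weeks and 1.68 ± 0.24 at 4 weeks.

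Of 8 BMP response genes, 0 were higher and 3 lower in 2-week iCMs than in fibroblasts, and 1 and 4 at 4 weeks. Against GFP- cells the counts were 1 and 1, and 2 and 2. Of all genes, 17.4% were higher and 15.8% lower than in fibroblasts at 2 weeks, and 14.3% and 15.2% at 4 weeks. The shares of all genes against GFP- cells were 16.2% and 18.4%, then 17.2% and 17.1%. Over the 8 the median difference from GFP- cells was 0.11 log2 at 2 weeks and 0.12 at 4 weeks. Id2, an inhibitor of helix-loop-helix factors, averaged 9.46 ± 0.28 log2 in 4-week iCMs, 9.07 ± 0.13 in 2-week iCMs, 11.68 ± 0.16 in 4-week GFP- cells, 11.10 ± 0.07 in 2-week GFP- cells, 8.99 ± 0.21 in cardiomyocytes and 11.04 ± 0.19 in fibroblasts (SD, n = 3 each). It was lower in iCMs than in GFP- cells (-2.02 ± 0.14 at 2 weeks and -2.22 ± 0.14 at 4 weeks), and the part of the macrophage markers, lower in the same groups, was not tested. Id3, of the same family, averaged 9.60 ± 0.10 log2 in 4-week iCMs, 9.30 ± 0.15 in 2-week iCMs, 9.59 ± 0.33 in 4-week GFP- cells, 8.16 ± 0.09 in 2-week GFP- cells, 8.09 ± 0.15 in cardiomyocytes and 9.50 ± 0.24 in fibroblasts (SD, n = 3 each). Like Bmp4 it was higher in 4-week than in 2-week GFP- cells (1.42 ± 0.14), and the test of the contrast in time passed (-1.12 ± 0.20, adjusted p = 0.00264). Hey1, a Notch and BMP target, was higher in cardiomyocytes than in fibroblasts (0.70 ± 0.12). Msx2, a homeobox gene of that response, was under background in 4-week GFP- cells and at least 1.3-fold higher in iCMs of that week.

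Between the weeks fewer members were called than between kinds of cell. In 4-week against 2-week iCMs 0 members were called higher (against 4.29% of all genes) and 6 lower (12.5% against 7.24%), with 11 members at an unadjusted p under 0.05. An intensity trend with array weights in limma gave 2 higher and 12 lower. Bmp1 and Tgfb1 had the lowest adjusted p among the 6, at -0.58 ± 0.11 and -0.49 ± 0.11. The call of Tgfb1 was lost without replicate 3 of the 4-week iCMs (adjusted p = 0.0522). Leaving out replicate 2 of the 2-week iCMs or any one of the 4-week iCM arrays left 3 lower. In GFP- cells 9 members were higher at 4 than at 2 weeks (18.8% against 7.16%) and 1 lower (2.08% against 10.2%). The higher members, Bmp2, Bmp2k, Bmp4, Bmp6, Bmpr1a, Bmpr2, Acvr2a, Smad5 and Tgfb2, numbered 4 to 12 when 1 array was left out, and the 1 lower member was Tgfb1 (-0.34 ± 0.11), a call lost without replicate 1 or 2 of the 2-week GFP- cells or replicate 2 or 3 of the 4-week GFP- cells (adjusted p from 0.106 to 0.189), and when only the groups compared were fitted (0.0826). The mean over endothelial markers was higher in 4-week than in 2-week GFP- cells as well, although Kdr was lower. The mean over proliferation markers was lower at 4 weeks (8.46 against 9.86 log2), and single fibroblast markers moved in both directions. The part of these lists in the counts of GFP- cells was not tested. Fewest (4) were called without replicate 3 of the 2-week or replicate 2 of the 4-week GFP- cells, and 5 without replicate 1 of either. The change in iCMs minus that in GFP- cells was called higher in 0 members (against 1.86% of all genes; 15 members had an unadjusted p under 0.05 in either direction) and lower in 3 (6.25% against 2.08%), namely Bmp4, Inhba and Bmp2k. That count ran from 1 to 7 when 1 array was left out: 7 without replicate 2 of the 2-week GFP- cells, 6 without replicate 3 of the 4-week GFP- cells, and 1 without replicate 1 or 3 of the 2-week or replicate 1 of the 4-week GFP- cells. Bmp4 was the member called in each of those fits.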

How the data were processed

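Total RNA of 18 samples was hybridised to Affymetrix mouse Gene 1.0 ST arrays, 3 in each of 6 groups. The deposited values are log2 intensities that the authors made with RMA, per the submitters' processing notes, whose version is not given in the sources used here. Of 28682 probe sets 21755 named 1 gene by the platform annotation, 1592 several and 5335 none. Each of 19912 genes was read from 1 probe set, the one of highest mean over all arrays, with no further normalization or filter. Array medians lay between 7.46 and 7.58 log2, and arrays of one group correlated at 0.990 to 0.996. The number of arrays limits the precision.

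A model of group means over all 18 arrays was fitted with limma 3.58.1 in R 4.3.3 (lmFit, eBayes, two-sided), with 12 contrasts and Benjamini-Hochberg adjustment over 19912 genes. Its code was tested on simulated data. A fold against a mean not above background is a lower bound, set at the background limit. Values of every array are given for members whose group means spanned at least 1 log2 and for Smad3. From each pathway list up to 4 genes with the largest called differences are named. Alternatives were quantile normalization, removal of dim genes, the mean of a gene's probe sets, an intensity trend with array weights, fits of only the groups compared, a replicate block, and each array left out in turn. The members and lists were chosen with earlier results of these data known. 1 gene matching the pattern is not reported here.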

Additional observations from a re-analysis of the deposited data

Results flagged for a closer look

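The change from 2 to 4 weeks differed between iCMs and GFP- cells, by the test of that difference in limma, for 3 of the 48 members and 13 of the 84 measured genes of the pathway lists. All 3 members and 12 of the 13 genes were lower in this difference and 1 gene was higher, against 2.08% lower and 1.86% higher among all genes. Dcn, Fn1, Snai2, Zfyve16 and Tgfbi were added because they passed this test. Each value is the 4-week minus the 2-week mean in log2, with its SE, from 3 arrays a group. Among the members, Bmp4 gave -0.29 ± 0.15 in iCMs and 1.27 ± 0.15 in GFP- cells, a difference of -1.56 ± 0.22 (adjusted p = 0.000335). Inhba gave -0.70 ± 0.21 in iCMs and 0.56 ± 0.21 in GFP- cells, a difference of -1.27 ± 0.29 (adjusted p = 0.0167), and Bmp2k gave -0.24 ± 0.10 in iCMs and 0.33 ± 0.10 in GFP- cells, a difference of -0.57 ± 0.14 (adjusted p = 0.0286). The call of Inhba was lost without replicate 1 or 3 of the 2-week GFP- cells or replicate 1 of the 4-week GFP- cells (adjusted p from 0.0501 to 0.056). That of Bmp2k was lost without replicate 1 or 3 of the 2-week GFP- cells or replicate 3 of the 2-week iCMs or replicate 1 of the 4-week iCMs or replicate 1 or 2 of the 4-week GFP- cells (adjusted p from 0.0581 to 0.0888).

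Fst, the trap of activin, gave -1.17 ± 0.27 in iCMs and 0.58 ± 0.27 in GFP- cells, a difference of -1.75 ± 0.38 (adjusted p = 0.00993). Fstl1 gave -0.94 ± 0.18 in iCMs and 0.53 ± 0.18 in GFP- cells, a difference of -1.47 ± 0.25 (adjusted p = 0.00183), and Bmper gave -0.56 ± 0.17 in iCMs and 0.33 ± 0.17 in GFP- cells, a difference of -0.89 ± 0.24 (adjusted p = 0.0393). The co-receptor Eng had -0.47 ± 0.14 in iCMs and 0.63 ± 0.14 in GFP- cells, a difference of -1.11 ± 0.20 (adjusted p = 0.00265), and the corepressor Tgif1 -0.44 ± 0.11 in iCMs and 0.17 ± 0.11 in GFP- cells, a difference of -0.61 ± 0.16 (adjusted p = 0.0366). Response genes were Id3, with 0.30 ± 0.14 in iCMs and 1.42 ± 0.14 in GFP- cells, a difference of -1.12 ± 0.20 (adjusted p = 0.00264), Timp1, with -1.0 ± 0.15 in iCMs and 0.18 ± 0.15 in GFP- cells, a difference of -1.18 ± 0.21 (adjusted p = 0.00265), and Lox, with -1.72 ± 0.29 in iCMs and 0.05 ± 0.29 in GFP- cells, a difference of -1.76 ± 0.41 (adjusted p = 0.0176). The response genes Fn1, with -1.04 ± 0.15 in iCMs and 0.10 ± 0.15 in GFP- cells, a difference of -1.13 ± 0.22 (adjusted p = 0.00443), and Snai2, with 0.08 ± 0.13 in iCMs and 0.84 ± 0.13 in GFP- cells, a difference of -0.76 ± 0.18 (adjusted p = 0.0204), were lower too. Dcn, a matrix proteoglycan that binds TGF-beta, had 0.11 ± 0.14 in iCMs and 1.44 ± 0.14 in GFP- cells, a difference of -1.33 ± 0.19 (adjusted p = 0.000469). Zfyve16, an endosomal SMAD partner, had 0.21 ± 0.11 in iCMs and 0.76 ± 0.11 in GFP- cells, a difference of -0.55 ± 0.15 (adjusted p = 0.0485). Tgfbi, a matrix protein induced by TGF-beta, was the one higher, with -0.14 ± 0.09 in iCMs and -0.71 ± 0.09 in GFP- cells, a difference of 0.57 ± 0.12 (adjusted p = 0.0102). The call of Bmper was lost without replicate 1 or 3 of the 2-week GFP- cells or replicate 2 or 3 of the 2-week iCMs or replicate 2 or 3 of the 4-week iCMs or replicate 1 of the 4-week GFP- cells (adjusted p from 0.0848 to 0.119), and when only the groups compared were fitted (0.062). The call of Tgif1 was lost without replicate 1 or 3 of the 2-week GFP- cells or replicate 2 or 3 of the 2-week iCMs or replicate 1 or 2 or 3 of the 4-week iCMs or replicate 1 or 2 of the 4-week GFP- cells (adjusted p from 0.0596 to 0.112). The call of Lox was lost without replicate 1 of the 4-week GFP- cells (adjusted p = 0.0583). The call of Snai2 was lost without replicate 1 of the 2-week GFP- cells or replicate 3 of the 2-week iCMs or replicate 3 of the 4-week iCMs or replicate 1 or 2 of the 4-week GFP- cells (adjusted p from 0.0547 to 0.0688). The call of Zfyve16 was lost without replicate 1 or 3 of the 2-week GFP- cells or replicate 2 or 3 of the 2-week iCMs or replicate 1 or 3 of the 4-week iCMs or replicate 1 or 2 or 3 of the 4-week GFP- cells (adjusted p from 0.0692 to 0.142), and when only the groups compared were fitted (0.0927).

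Fibroblast markers, which include Dcn and Fn1, ranged over 8.62 to 8.66 log2 in 4-week iCMs and 9.11 to 9.34 in 2-week iCMs, and over 9.06 to 9.34 in 4-week and 8.78 to 9.22 in 2-week GFP- cells. Endothelial markers ranged over 7.13 to 7.19 in 4-week iCMs and 6.84 to 6.96 in 2-week iCMs, and over 8.35 to 8.73 in 4-week and 7.72 to 7.87 in 2-week GFP- cells. Their part in these differences was not tested.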

How the results depend on the processing

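Of 972 differences followed (in 12 comparisons, for 48 members, 28 named pathway genes and 5 more called in the change with time), 458 were called, and no called difference changed sign under any alternative run. Quantile normalization kept 446 of the calls, leaving out dim genes 446 of those still tested, and averaging probe sets 458. No member had a second probe set, so averaging left the levels of the members unchanged and could say little about their calls. An intensity trend with array weights kept 451, and fitting only the groups compared 422. Over the fits with 1 array left out, calls were kept 2500 times and lost 344 times.

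Counts of members moved as follows. Members higher in 4-week than 2-week iCMs numbered 0, and 2 with quantile normalization and 2 with the trend and weights. Those lower numbered 6, with 12 under the trend and weights and 3 to 4 with 1 array left out. For the change in iCMs minus that in GFP- cells, 3 were lower, with 5 under quantile normalization, 15 under the trend and weights, and 1 to 7 with 1 array left out. In 2-week GFP- cells against fibroblasts 2 were higher, and 6 with the trend and weights. In 4-week against 2-week GFP- cells 9 were higher, 5 when only the groups compared were fitted, and 4 to 12 with 1 array left out; 1 was lower, with 3 under the trend and weights, 0 when only the groups compared were fitted, and 0 to 1 with 1 array left out. In 4-week GFP- cells against fibroblasts 5 were higher and 7 lower, with 3 to 4 and 3 to 7 when 1 array was left out. In 4-week iCMs against fibroblasts 12 were higher, and 7 to 10 with 1 array left out. The causes were not tested.

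The labels tie no animal or batch to the replicate numbers. Of 45 pairs of arrays with the same number in different groups, 15 had deviations correlated above 0.1 (range -0.30 to 0.45, median -0.002), as had 21 of 90 pairs with different numbers (median 0.001). Best correlation with an array of the same number was seen in 11 of 18 arrays, a hint from the data and not from the design, and the arrays were treated as sharing only a number. With the replicate block, 455 of the 458 calls were kept, 3 were lost and 6 were gained. Members near background, such as Acvr1c and Bmpr1b, are limited by signal.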
